A study of Mus musculus with 15 samples.

Results

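The 10 genes described here are RNA markers of injured or dedifferentiated kidney tubule cells: Havcr1, Lcn2, Spp1, Clu, Krt8, Krt18, Vim, Cd44, Vcam1 and Sox9. They were chosen by name as a panel, and each was found as 1 Ensembl gene among the 54752 rows of the deposited count table. RNA had been sequenced from tubule segments dissected from mouse kidneys, in 15 libraries. The 4 groups were proximal convoluted tubule of Cldn10a knockout mice (PCT KO, 3 libraries, replicates 4, 5 and 7) and of wild-type mice (PCT WT, 4 libraries, replicates 1, 2, 3 and 6), and distal convoluted tubule of knockout mice (DCT KO, 4 libraries, replicates 5 to 8) and of wild-type mice (DCT WT, 4 libraries, replicates 1 to 4). All mice had the same standard housing and diet, and no injury or drug treatment is named. Each pool held 10 proximal or about 20 distal tubules of a kidney, so every value is an average over tubules and over whatever cells stuck to them. The labels give neither age nor the way the knockout was made, nor do they state that each library came from its own mouse. The p values below therefore measure the spread between libraries, which may be partly technical.

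A damaged tubule cell loses transporters and brush border, and switches on genes that the healthy cell keeps low. Some of these encode surface or secreted proteins (KIM-1 from Havcr1, NGAL from Lcn2, osteopontin from Spp1, clusterin from Clu), others the intermediate filaments keratin 8, keratin 18 and vimentin, the adhesion proteins CD44 and VCAM-1, or the transcription factor SOX9. Several are not silent in a healthy kidney: osteopontin and clusterin are made in distal parts of the nephron, so the level of a marker has to be read against its own segment.

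The libraries held 28729339 to 51764746 counts, of which nuclear protein-coding genes made up 8.02 to 19.7%. Levels are given in CPM, counts scaled to the size of each library, after 1 trimmed-mean (TMM) scaling of all 15. Cldn10, the targeted gene, had 0 counts in all 3 PCT KO libraries, against 541 to 1514 counts in PCT WT. It had 0 to 24 counts in DCT KO and 3 to 22 in DCT WT. Segment markers fitted the dissection labels. The 7 proximal tubule markers (Slc34a1, Lrp2, Cubn, Slc5a2, Slc5a12, Slc22a6 and Slc27a2) summed to 3826 to 4027 CPM in PCT KO and 3385 to 4096 CPM in PCT WT, against 7.30 to 14.5 CPM in DCT KO and 10.8 to 14.6 CPM in DCT WT. The 6 distal convoluted tubule markers (Slc12a3, Pvalb, Trpm6, Klhl3, Emx1 and Sall3) summed to 2.51 to 3.82 CPM in PCT KO and 2.52 to 4.62 CPM in PCT WT, against 767 to 1072 CPM in DCT KO and 760.2 to 1024 CPM in DCT WT. The distal pools also held 5 thick ascending limb markers at 260.0 to 405 CPM in KO and 162 to 342 CPM in WT.

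Counts differed widely among the 10 genes. Spp1, Krt8, Clu and Vcam1 had a count in all 15 libraries, Vim in 14, Krt18 in 11, Cd44 and Sox9 in 9, Havcr1 in 8 and Lcn2 in 1. A gene entered a test if it had about 10 counts in as many libraries as the smaller group held. On that filter 4 of the 10 could be tested between genotypes in proximal tubule (Havcr1, Spp1, Krt8 and Vcam1) and 7 in distal tubule (all but Havcr1, Lcn2 and Cd44). Per kilobase of exon, Spp1 had the highest level of the 10 in all 4 groups, at 37.2 CPM per kb in PCT KO, 83.6 in PCT WT, 213 in DCT KO and 235 in DCT WT. In proximal tubule Krt8 was next, at 2.22 CPM per kb in KO and 1.82 in WT, and Havcr1 came after it, at 0.231 in KO and 0.236 in WT. In distal tubule Clu was next, at 73.8 CPM per kb in KO and 78.3 in WT. Krt18 and Krt8 followed, with ranges over libraries that overlapped in WT (1.62 to 2.52 and 1.11 to 1.76) and not in KO (1.54 to 2.19 and 1.36 to 1.53). Sox9 and Vim came after them in distal tubule and overlapped each other in both genotypes.

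**Figure D1:**
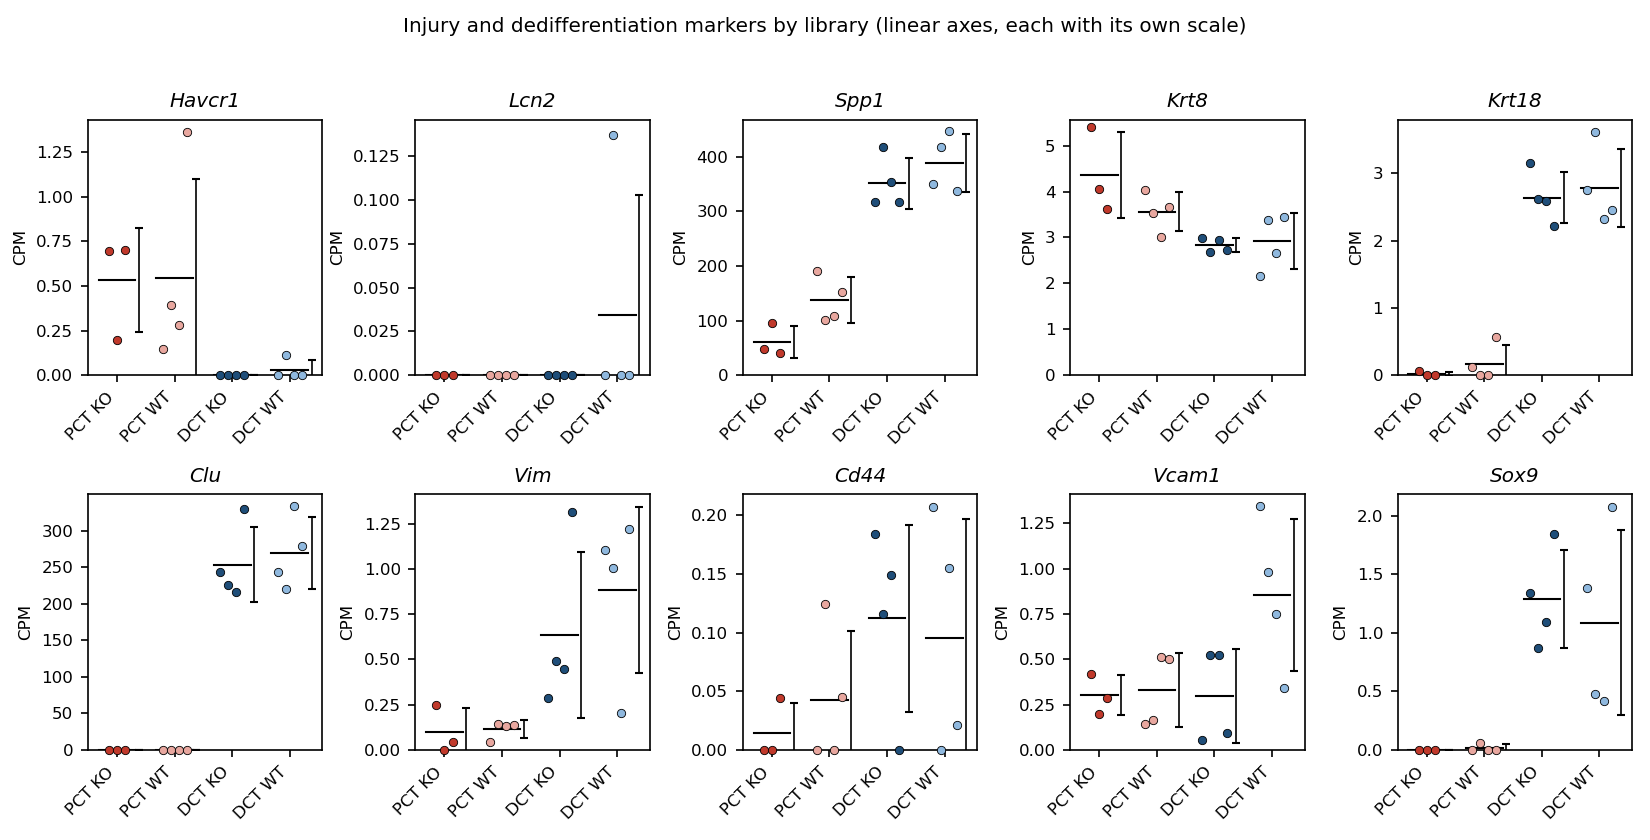
Levels of the 10 genes in CPM (vertical axes, linear, each gene with its own scale) in every library, by group. Points are libraries, the horizontal bar is the group mean and the error bar is 1 SD. Spp1 is the gene whose PCT KO points (41.0 to 94.6 CPM) all lie under its PCT WT points (100.6 to 190.0 CPM), while Clu, Krt18 and Sox9 are near 0 in proximal tubule.

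Proximal tubule is the segment that lost Cldn10 RNA, and knockout and wild type were set against each other there first. None of the 4 genes tested passed the threshold. limma called 22 genes of 13229 (0.166%; Benjamini-Hochberg adjusted p under 0.05). An unadjusted p under 0.05 was found for 976 (7.38%), among them 1 of the 4 (Spp1). The median log2 change was 0.13 over the 4 genes and −0.01 over all genes tested.

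Spp1 encodes osteopontin, a secreted phosphoprotein that binds integrins and CD44 (ENSMUSG00000029304; GRCm38 chromosome 5, 104435118 to 104441050, + strand). It had 48.3, 94.6 and 41.0 CPM in PCT KO (replicates 4, 5 and 7), against 190.0, 100.6, 109 and 152 CPM in PCT WT (replicates 1, 2, 3 and 6). The groups did not overlap, as was the case for 7.97% of all genes tested, but the highest knockout library lay close under the lowest wild-type library. The means were 61.3 ± 29.1 CPM in PCT KO (SD, n = 3) and 138 ± 41.5 CPM in PCT WT (SD, n = 4), from 1733 to 3808 counts per KO library and 4857 to 9198 per WT library. The log2 change was −1.23 ± 0.28 (SE; 95% interval −1.83 to −0.64), and limma gave an unadjusted p of 0.000611, rank 61 of 13229, and an adjusted p of 0.131, which misses the threshold. In the authors' deposited table for proximal tubule, Spp1 has a log2 change of −1.19 and an adjusted p of 0.00354, among 136 of 14748 genes with an adjusted p under 0.05 in the authors' deposited table. The sign in the authors' deposited table was read from its value for Cldn10, −12.2.

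The side of the threshold on which Spp1 fell depended on the model. limma's adjusted p was 0.0193 with no filter on low counts, 0.0280 with sample quality weights and 0.0103 in 1 fit of all 15 libraries. It was 0.0461 without PCT KO replicate 5, the knockout library with the most Spp1, and 0.444 without PCT KO replicate 4. The log2 change stayed below 0 in all 16 other settings, between −1.60 and −0.92. The smallest change came from leaving out the proximal libraries with numbers of another series, 97795 (WT replicate 6) and 97797 (KO replicate 7), where the adjusted p was 0.3997. Those libraries alone had 41.0 CPM in KO and 152 CPM in WT.

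**Figure D2:**
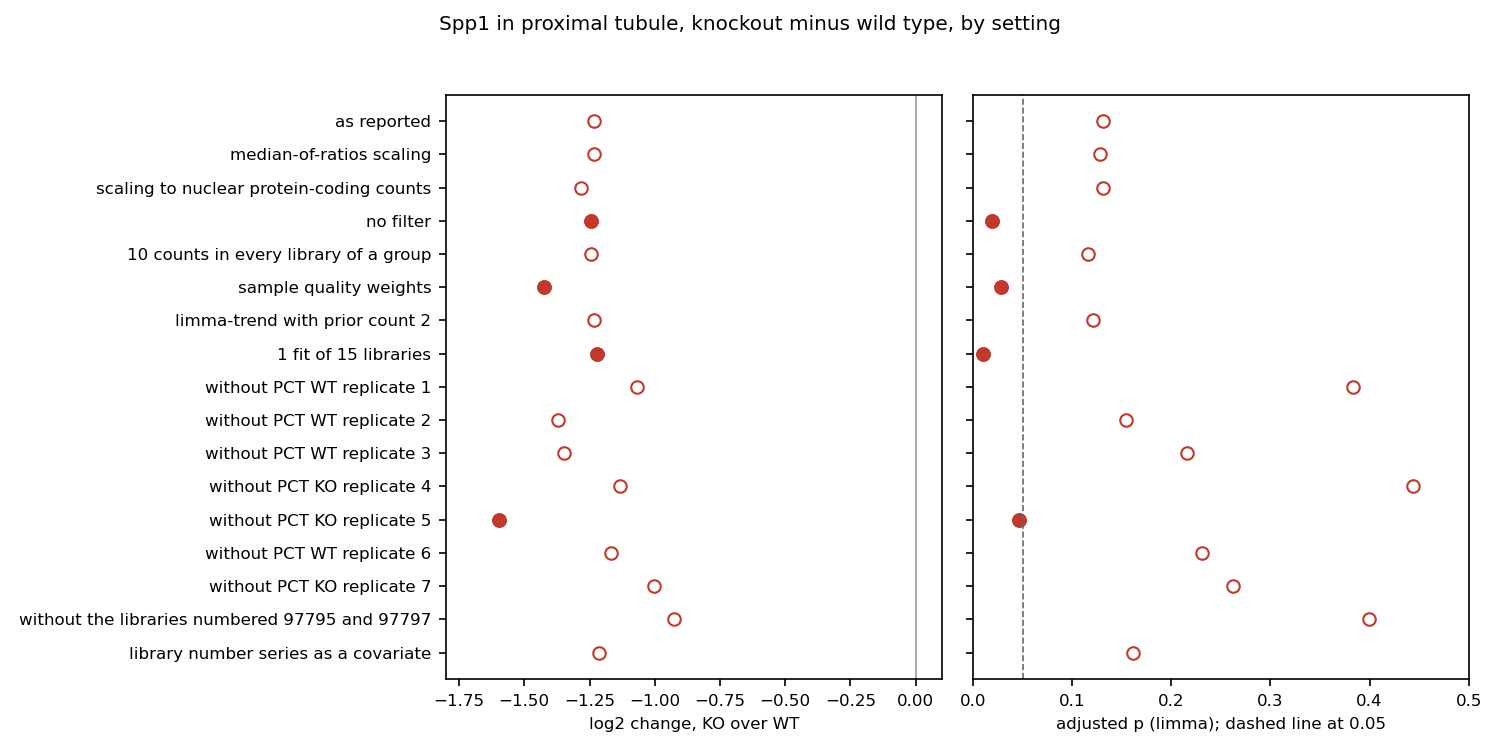
Spp1 in proximal tubule, knockout over wild type, in 17 settings of the same limma test: log2 change (left) and adjusted p (right, dashed line at 0.05). Filled points have an adjusted p under 0.05. The change lies between −1.60 and −0.92 in every setting, while only 4 of the 17 are filled.

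Markers of neighbouring segments were set beside Spp1, since distal cells hold more of it. Of the distal convoluted tubule markers, Slc12a3, the thiazide-sensitive sodium chloride cotransporter, had 0.0186 ± 0.0322 CPM in PCT KO (SD, n = 3; 0 to 2 counts) and 0.270 ± 0.0441 CPM in PCT WT (SD, n = 4; 11 to 15 counts). Its limma change of −3.71 had an unadjusted p of 0.00252 and an adjusted p of 0.242. Of the 6 markers, 2 were at 0 in every PCT KO library and 0 in PCT WT. The proximal median of their sum was 0.295% of the distal one in KO and 0.469% in WT, whereas the proximal median of Spp1 was 14.4% of the distal one in KO and 34.0% in WT. Thick ascending limb markers stood likewise at 0.309% in KO and 0.410% in WT. Most of the proximal sum of the distal convoluted tubule markers was Klhl3, at a mean of 2.57 CPM in PCT KO and 2.86 CPM in PCT WT. For the thick ascending limb markers it was Ptger3, at 0.774 CPM in PCT KO and 0.507 CPM in PCT WT. These shares therefore rest mainly on those genes. Markers of other cells also moved in proximal tubule. The 7 endothelial markers summed to 19.9 to 37.1 CPM in PCT KO and 12.0 to 23.1 CPM in PCT WT, with 7 of 7 changes above 0, 3 at an unadjusted p under 0.05 and 0 called. The 8 leukocyte markers summed to 1.15 to 2.09 CPM in PCT KO and 0.318 to 1.04 CPM in PCT WT, and the 1 that could be tested, Csf1r, had a change of 2.15 (limma adjusted p = 0.421). Their part in the Spp1 values was not tested. In pooled tubules, fewer cells that make a transcript and less transcript per cell cannot be told apart.

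The 250 bases upstream of the RefSeq start of Spp1 (GRCm38.p6, chr5:104434861-104435110, + strand) are shown because Spp1 is the member with the lowest p in proximal tubule. Capitals mark matches to 5 short motifs searched on both strands of the 250 upstream bases. They are the TATA box spelled TATAAA, the CCAAT box spelled CCAAT, the GC box spelled GGGCGG, the AP-1 site spelled TGANTCA and the AP-2 site spelled GCCNNNGGC. No match overlaps another in the sequences shown.

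Spp1: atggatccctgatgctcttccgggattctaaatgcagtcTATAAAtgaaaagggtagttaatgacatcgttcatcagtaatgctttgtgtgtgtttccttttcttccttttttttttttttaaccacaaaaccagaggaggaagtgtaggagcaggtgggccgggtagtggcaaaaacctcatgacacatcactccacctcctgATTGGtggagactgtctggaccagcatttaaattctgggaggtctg

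The capitals are a TATA box at −211 to −206 from the start and a CCAAT box on the opposite strand at −46 to −42. Over all 32851 RefSeq windows of the same length, 12.4% held that TATA box and 33.8% that CCAAT box.

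The other proximal genes showed no difference that limma could separate from the spread. Havcr1, the KIM-1 gene and the marker most tied to proximal tubule injury (ENSMUSG00000040405; chromosome 11, 46735080 to 46779578, + strand), had 0.697, 0.199 and 0.705 CPM in PCT KO, against 0.145, 0.394, 0.284 and 1.36 CPM in PCT WT. The groups overlapped, and both the lowest and the highest library were wild type. These values rest on 8 to 32 counts per KO library and 7 to 60 per WT library. The log2 change of 0.29 ± 0.71 (SE, limma adjusted p = 0.947) has a 95% interval from −1.24 to 1.83. Given this spread between libraries, a change of 1 log2 unit in either direction lies inside the interval.

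Krt8 had 5.41, 4.05 and 3.61 CPM in PCT KO, against 4.03, 3.54, 3.01 and 3.66 CPM in PCT WT. The ranges overlapped, with 1 knockout library above all others. The log2 change was 0.25 ± 0.22 (SE; limma adjusted p = 0.846; 95% interval −0.23 to 0.73). Vcam1, an adhesion receptor for leukocytes, had 0.301 ± 0.110 CPM in PCT KO (SD, n = 3) and 0.331 ± 0.203 CPM in PCT WT (SD, n = 4). Its log2 change was 0.00 ± 0.67 (SE, limma adjusted p = 0.998).

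The 6 genes too low to test in proximal tubule were low in both genotypes. Lcn2, the NGAL gene, had 0 counts in all 7 proximal libraries, where a count of 0 allows up to 0.0568 to 0.0836 CPM per library. Sox9 had 0 counts in the 3 PCT KO libraries and 3 counts in 1 of the 4 PCT WT libraries. Clu had 5 to 11 counts in PCT KO and 3 to 13 in PCT WT, and Vim had 0 to 9 in PCT KO and 2 to 7 in PCT WT. Cd44, the hyaluronan receptor, had 2 counts in all of PCT KO and 8 in all of PCT WT. Krt18 had 2 counts over the 3 PCT KO libraries and 31 over the 4 PCT WT libraries, of which 25 were in replicate 6. Limits and counting intervals here take in counting error alone, because the reads carried no molecular identifiers and need not be separate molecules.

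The panel was set beside wider lists of genes for the same processes. Of 60 other injury genes, 37 could be tested in proximal tubule and 0 were called, with 18 above 0, a median log2 change of −0.01 and 3 at an unadjusted p under 0.05. Those were Cxcl16, a chemokine (−0.65, limma adjusted p = 0.290), Cdkn1a, a cell cycle inhibitor (−0.92, limma adjusted p = 0.631), and Tgfb1, a fibrosis cytokine (1.55, limma adjusted p = 0.674). Of 26 ligands and receptors of the panel's proteins, 17 were tested and 0 called, and of 13 keratin partners 4 were tested and 0 called.

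Loss of transporters is the other side of dedifferentiation. All 29 proximal differentiation genes were tested between genotypes in proximal tubule and 0 were called, 15 above 0, with a median of 0.03. An unadjusted p under 0.05 was seen for 12 of the 29 genes (41.4%), in both directions, against 7.38% of all genes tested. The list was chosen with earlier results of these data known, and many of its genes are abundant. The 41.4% is therefore no support for a pattern. Slc34a3, a phosphate transporter, had 7.56 ± 2.67 CPM in PCT KO (SD, n = 3) and 17.1 ± 3.86 CPM in PCT WT (SD, n = 4), a log2 change of −1.24 (limma adjusted p = 0.107). Slc5a2, the glucose transporter SGLT2 of the early tubule, had 34.6 ± 8.46 CPM in PCT KO and 60.9 ± 17.1 CPM in PCT WT (−0.81, limma adjusted p = 0.296). On the other side, Slc27a2, a fatty acid transporter, had a log2 change of 0.91 (limma adjusted p = 0.131), and Aqp1, the water channel, 0.68 (limma adjusted p = 0.199).

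Within distal tubule, where Cldn10 RNA is scarce in both genotypes, none of the 7 genes tested passed the threshold. limma called 0 genes of 12968 (0%). An unadjusted p under 0.05 was found for 925 (7.13%), among them 1 of the 7, Vcam1. The median log2 change was −0.09 over the 7 genes and −0.01 over all genes tested. The authors' deposited table for distal tubule has 3 of 7181 genes with an adjusted p under 0.05, and none of the 10 is among them. Of the 10, only Spp1, Krt8, Krt18 and Clu have an adjusted p there, so the others could not have been among them.

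The abundant markers were close between genotypes in distal tubule. Spp1 had 316, 417, 354 and 317 CPM in DCT KO, against 349, 418, 447 and 338 CPM in DCT WT, with overlapping ranges. The log2 change was −0.14 ± 0.13 (SE; limma adjusted p = 0.828; 95% interval −0.41 to 0.12). Clu, a secreted chaperone (ENSMUSG00000022037; chromosome 14, 65968483 to 65981547, + strand), had 243, 226, 216 and 329 CPM in DCT KO, against 244, 221, 333 and 279.7 CPM in DCT WT, also overlapping (−0.09 ± 0.15, SE; limma adjusted p = 0.922; 95% interval −0.39 to 0.21). The intervals of both exclude a change of 1 log2 unit in either direction.

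The distal filament genes did not pass the test either. Krt8 had a log2 change of −0.05 (95% interval −0.52 to 0.42) and Krt18 of −0.08 (95% interval −0.56 to 0.41). Vim was lower and more variable, at 0.289, 0.494, 0.448 and 1.31 CPM in DCT KO, against 1.10, 1.01, 0.206 and 1.22 CPM in DCT WT. Its ranges overlapped, and its change of −0.40 had a 95% interval from −1.58 to 0.78.

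Vcam1 had the lowest p of the distal members (ENSMUSG00000027962; chromosome 3, 116109949 to 116129688, − strand). It had 0.0525, 0.523, 0.522 and 0.0922 CPM in DCT KO, against 1.34, 0.984, 0.748 and 0.343 CPM in DCT WT, from 2 to 21 counts per KO library and 16 to 43 per WT library. The groups overlapped through DCT WT replicate 4; groups were apart for 3.82% of all genes tested and for none of the 7. The log2 change was −1.84 ± 0.70 (SE; 95% interval −3.31 to −0.38), with an unadjusted p of 0.0160 and an adjusted p of 0.670 in limma. The authors' deposited table gives −1.52 and an unadjusted p of 0.0200, with no adjusted p. The 7 endothelial markers, of a cell type that can carry VCAM-1, summed to 44.0 to 46.2 CPM in DCT KO and 49.2 to 64.9 CPM in DCT WT, with 7 of 7 changes below 0, 4 at an unadjusted p under 0.05 and 0 called. The 8 leukocyte markers summed to 1.47 to 2.34 CPM in DCT KO and 2.03 to 2.31 CPM in DCT WT. Their part in the Vcam1 values was not tested.

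Sox9, a transcription factor of nephron development and tubule repair (ENSMUSG00000000567; chromosome 11, 112782224 to 112787760, + strand), had 1.34, 0.872, 1.09 and 1.84 CPM in DCT KO, against 1.38, 0.480, 0.413 and 2.08 CPM in DCT WT. The knockout range lay inside the wild-type range, and the log2 change of 0.53 had a 95% interval from −0.39 to 1.46 (limma adjusted p = 0.818). Lcn2 had 6 counts in DCT WT replicate 2 and 0 in the other 7 distal libraries. Havcr1 had 0 counts in DCT KO and 5 in DCT WT, all in that same replicate. Cd44 had 17 counts over DCT KO and 13 over DCT WT. Of the 60 other injury genes 37 were tested in distal tubule and 0 called, with 13 above 0 and a median of −0.11. Of 22 distal differentiation genes, all were tested and 0 called, with a median of 0.03.

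**Figure D3:**
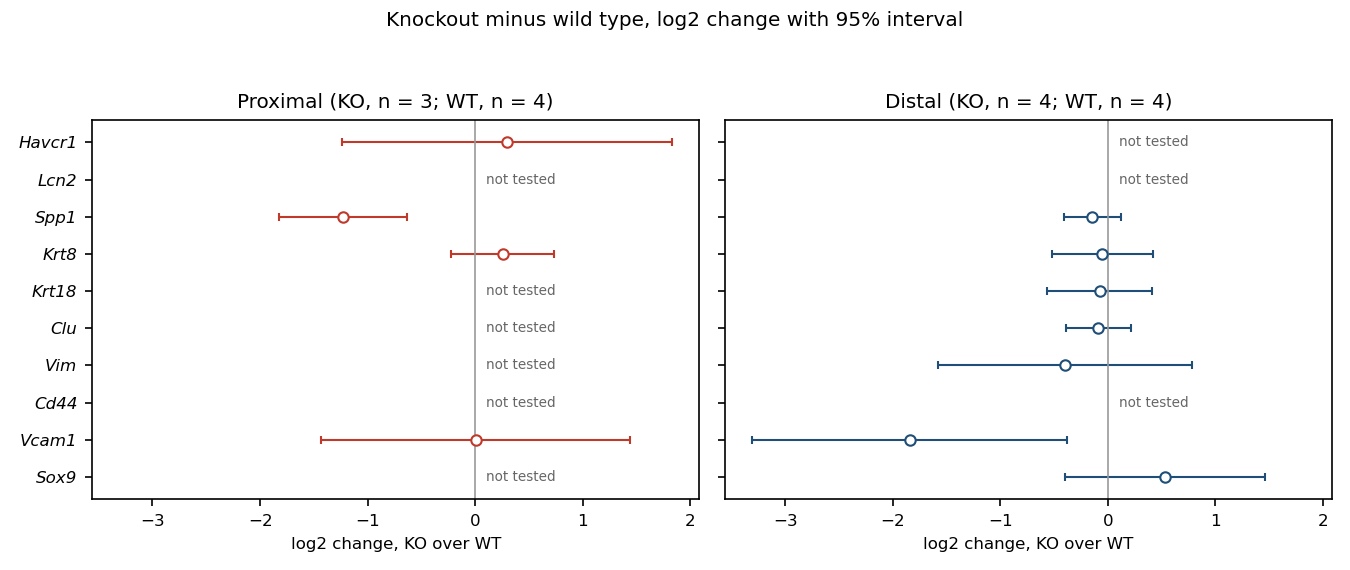
log2 change of each gene (horizontal axis, knockout over wild type) in proximal tubule (left) and distal tubule (right), with its 95% interval from limma. Open points have an adjusted p of 0.05 or more, which holds for all; genes marked as not tested did not pass the filter on low counts. Only the intervals of Spp1 in proximal tubule (−1.83 to −0.64) and of Vcam1 in distal tubule (−3.31 to −0.38) exclude 0.

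Whether the genotype difference itself differed between segments was tested as an interaction in 1 fit of the 15 libraries. limma called 0 genes of 15279 (0%), 0 of them among the 8 members that passed the filter, and 849 (5.56%) had an unadjusted p under 0.05. Spp1 had an interaction of −1.08 ± 0.31 (log2, SE; 95% interval −1.72 to −0.44), with an unadjusted p of 0.00201 and an adjusted p of 0.607. Vcam1 had 1.86 ± 1.01 (SE, limma adjusted p = 0.9399). That Spp1 differed in proximal tubule more than in distal tubule is thus not shown at the threshold used.

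The segments were then compared within each genotype. Proximal tubule had less Spp1, Krt18, Clu and Sox9 than distal tubule in both genotypes. Havcr1, which could not be tested, had more counts in proximal tubule, and Krt8 did not pass the test. In knockouts 7 of the 10 could be tested and 5 were called, all lower in PCT KO, where limma called 40.6% of 13834 genes, and 20.2% as lower. In wild type 6 could be tested and 4 were called, all lower in PCT WT, where limma called 48.7% of 13616 genes, and 25.1% as lower. Groups were apart for 6 of the 7 in knockouts (43.9% of all genes) and for 4 of the 6 in wild type (45%). Krt18, Clu, Vim and Sox9 passed the filter through the distal libraries alone and so had to differ; their number is no support for a pattern. The comparisons share no library with each other, but they share libraries with the genotype comparisons.

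Scaling moved this comparison as a whole. Scaled to nuclear protein-coding counts, the typical gene shifted by −0.39 in knockouts and −0.27 in wild type on the log2 scale. The share of calls that were higher in proximal tubule was then 31.8% against 50.3% with TMM in knockouts, and 34.3% against 48.4% in wild type. All members called kept their direction and call under that scaling, since their changes were far larger than the shift.

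Clu had the widest gap. It had 0.139, 0.149 and 0.242 CPM in PCT KO, against 243, 226, 216 and 329 CPM in DCT KO. In wild type it had 0.0620, 0.207, 0.0568 and 0.296 CPM in PCT WT, against 244, 221, 333 and 279.7 CPM in DCT WT. From pooled counts the distal level was 1416 times the proximal one in knockouts (95% counting interval 935 to 2260, exact binomial) and 1800 times in wild type (1253 to 2688). limma gave log2 changes of −10.38 ± 0.59 (SE, adjusted p = 1.1e-08) in knockouts and −11.00 ± 0.62 (SE, adjusted p = 7.8e-10) in wild type. The proximal median was 0.0635% of the distal one in KO and 0.0514% in WT, against 0.295% and 0.469% for the summed distal convoluted tubule markers. That proximal sum was mostly Klhl3, and other markers of the list had lower shares. Slc12a3 had a mean of 0.0186 CPM in PCT KO against 732 CPM in DCT KO, and 0.270 CPM in PCT WT against 669 CPM in DCT WT.

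Spp1 had the narrowest gap of the genes called. Its levels, given above by library, did not overlap between segments. The log2 change was −2.60 ± 0.24 (SE, limma adjusted p = 7.1e-07) between PCT KO and DCT KO and −1.54 ± 0.17 (SE, limma adjusted p = 1.06e-06) between PCT WT and DCT WT. Sox9 had 0 counts in each PCT KO library and 30 to 80 in DCT KO, so that DCT KO was at least 17.2-fold higher, with a floor of 3 counts per library. In wild type Sox9 had 3 counts in PCT WT against 174 in DCT WT, a distal excess of 70.9 times (95% counting interval 23.9 to 347). The limma adjusted p of Sox9 was 6.3e-06 in knockouts and 9.1e-05 in wild type.

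Vim, the filament of mesenchymal and endothelial cells, was called in knockouts and could not be tested in wild type. It had 0.251, 0 and 0.0441 CPM in PCT KO, against 0.289 to 1.31 CPM in DCT KO, a log2 change of −3.35 ± 1.01 (SE, limma adjusted p = 0.0158). The call was lost without PCT KO replicate 5 (−2.32, adjusted p = 0.103) or replicate 7 (−3.37, adjusted p = 0.0893). In wild type Vim had 0.0413, 0.145, 0.133 and 0.136 CPM in PCT WT, against 0.206 to 1.22 CPM in DCT WT. Its groups did not overlap there either. From pooled counts the distal level was 7.29 times the proximal one in knockouts (95% counting interval 3.91 to 15.1) and 7.84 times in wild type (4.98 to 12.9). PCT KO replicate 4 held 9 of the 11 counts of its group. Without it the knockout ratio was 28.2 (7.63 to 236) and the log2 change −4.42 (limma adjusted p = 0.0379), and without DCT KO replicate 8 the ratio was 4.51 (2.30 to 9.65). The summed fibroblast and pericyte markers, of cells that make vimentin, were 0.0836 to 0.925 CPM in PCT KO against 0.761 to 1.83 CPM in DCT KO, and 0.207 to 0.932 CPM in PCT WT against 1.16 to 5.10 CPM in DCT WT. Of these 8 markers, 3 were at 0 in every PCT KO library, 2 in PCT WT and 1 in each distal group. Endothelial markers, whose sums are given above, were called lower in proximal tubule for 0 of 7 genes in knockouts and 7 of 7 in wild type. The shares called lower over all genes tested were 20.2% and 25.1%. In knockouts too, 0 of the 7 changes were above 0, and 4 had an unadjusted p under 0.05 in limma. The part of these cells in the Vim values was not tested.

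Havcr1 was the member that ran the other way. It had 65 counts over the 3 PCT KO libraries and 0 over the 4 DCT KO libraries, so that PCT KO was at least 6.89-fold higher with a floor of 3 counts per library. It had 7 to 60 counts per library in PCT WT and 5 counts in DCT WT, a proximal excess of 16.5 times (95% counting interval 6.85 to 52.0). PCT WT replicate 6 held 60 of those proximal counts, and without it the excess was 8.68 times (3.43 to 28.1). All 5 distal counts were in DCT WT replicate 2. It missed the filter in both tests because too few libraries had 10 counts, so no p is given. Vcam1 did not differ at the threshold in either genotype, with log2 changes of 0.54 (limma adjusted p = 0.630) in knockouts and −1.34 (limma adjusted p = 0.0594) in wild type. The wild-type value passed the threshold in 5 of 9 other settings, among them scaling to nuclear protein-coding counts (limma adjusted p = 0.0267), and without PCT WT replicate 3 or DCT WT replicate 4 (0.0498 and 0.0111).

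**Figure D4:**
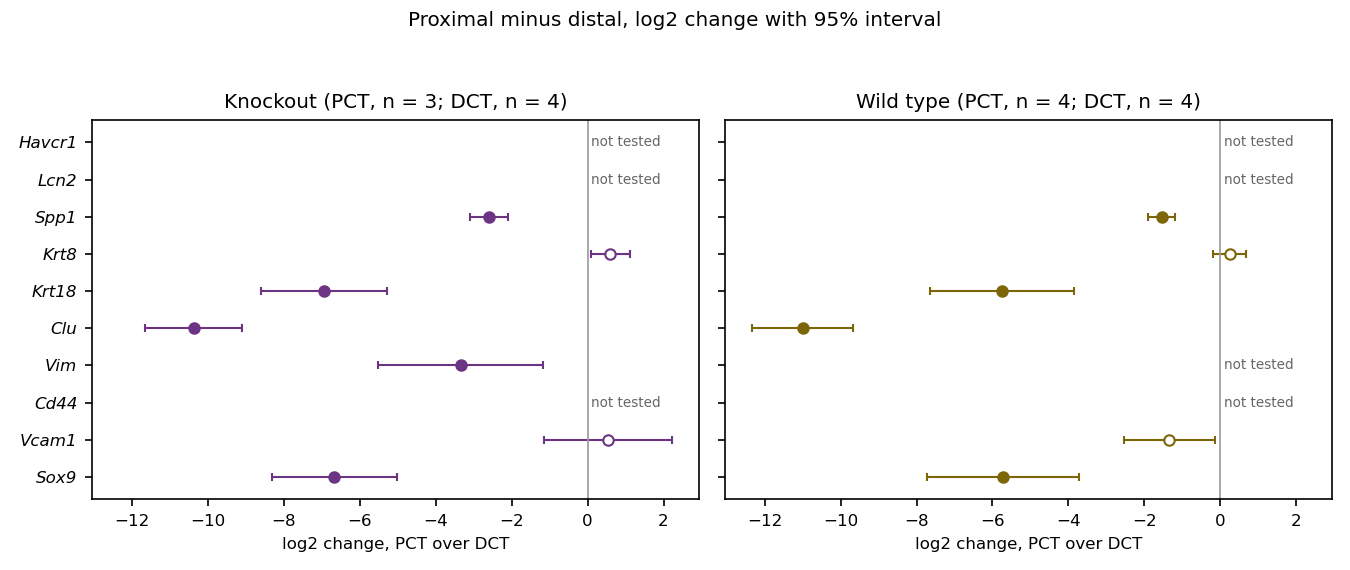
log2 change of each gene between segments (horizontal axis, proximal over distal) in knockout (left) and wild type (right), with its 95% interval from limma. Filled points have an adjusted p under 0.05. Values near or beyond −6 are of genes close to 0 counts in proximal tubule, where the fitted size depends on the prior count of 0.5. Clu lies near −10 to −11 in both panels and Krt8 near 0.

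Krt8 and Krt18 parted between the segments. Type II keratin 8 and type I keratin 18 assemble into filaments as partners, and their genes are neighbours on chromosome 15: Krt8 (ENSMUSG00000049382; 101996698 to 102004482, − strand) and Krt18 (ENSMUSG00000023043; 102028180 to 102032027, + strand) start 23697 bases apart and point away from each other. Krt8 had 5.41, 4.05 and 3.61 CPM in PCT KO, against 2.99, 2.67, 2.93 and 2.72 CPM in DCT KO. All proximal knockout libraries were higher, but the log2 change of 0.60 ± 0.24 (SE) had a limma adjusted p of 0.0605. In wild type the ranges overlapped, at 3.01 to 4.03 CPM in PCT WT and 2.17 to 3.45 CPM in DCT WT (0.25 ± 0.20, SE; limma adjusted p = 0.329), and the value was −0.02 when scaled to nuclear protein-coding counts.

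Krt18, by contrast, had 0.0557, 0 and 0 CPM in PCT KO, against 3.15, 2.61, 2.59 and 2.21 CPM in DCT KO. In wild type it had 0.124, 0, 0 and 0.5684 CPM in PCT WT, against 2.76, 3.61, 2.32 and 2.46 CPM in DCT WT. No proximal library reached a distal one. With 2 counts in PCT KO, the distal excess from pooled counts was 159.6 times with a 95% counting interval of 43.9 to 1322; in wild type it was 17.5 times (12.1 to 26.0). Both knockout counts were in PCT KO replicate 4, and without PCT KO replicate 7 the knockout ratio was 99.98 (27.5 to 828). Without PCT WT replicate 6, which held 25 of the 31 proximal counts, the wild-type ratio was 69.8 (31.8 to 191). The limma adjusted p was 4.9e-06 in knockouts and 4.8e-05 in wild type. Without the libraries numbered 97795 and 97797 the wild-type log2 change was −6.88 in place of −5.76.

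The ratio of Krt18 to Krt8 within a library needs no scaling between libraries. Per exonic length it was 0.0141, 0 and 0 in PCT KO and 0.0419, 0, 0 and 0.212 in PCT WT. In distal tubule it was 1.43, 1.33, 1.20 and 1.11 in DCT KO and 1.73, 1.46, 1.19 and 0.973 in DCT WT. The group means were 0.00468 ± 0.00811 in PCT KO (SD, n = 3), 0.0634 ± 0.101 in PCT WT (SD, n = 4), 1.27 ± 0.144 in DCT KO (SD, n = 4) and 1.34 ± 0.328 in DCT WT (SD, n = 4). In distal libraries Krt18 was thus 0.973 to 1.73 times Krt8 per length, and in proximal libraries at most 0.212 times. Krt8 reads are less certain than those of Krt18, because its processed pseudogene Krt8-ps on chromosome 7 had 28 to 30 counts in PCT KO, 13 to 29 in PCT WT, 8 to 16 in DCT KO and 3 to 20 in DCT WT. How reads that fit both copies were counted is not given in the sources used here.

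**Figure D5:**
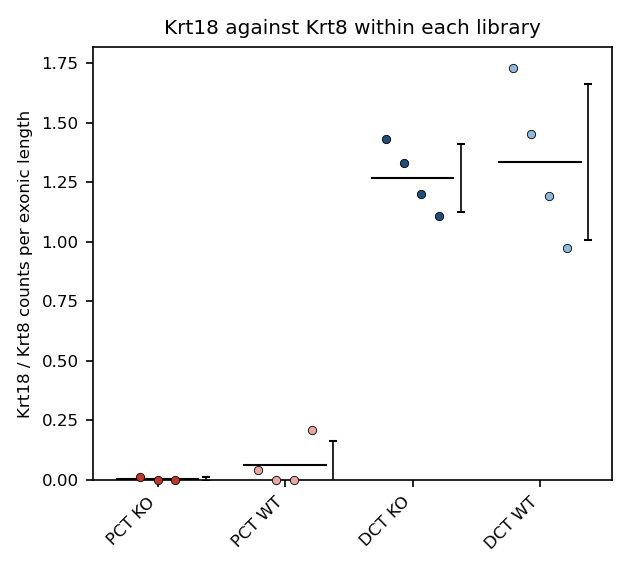
Krt18 counts over Krt8 counts, each divided by exonic length (vertical axis, no unit), in every library by group. Points are libraries, the horizontal bar is the group mean and the error bar is 1 SD. The highest proximal library (0.212, PCT WT replicate 6) lies under the lowest distal library (0.973).

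The upstream bases of both keratin genes are shown because the neighbours differed between segments. They are from RefSeq (GRCm38.p6) and end before the gene start in the annotation used for counts: Krt8 at chr15:102004483-102004592, − strand, and Krt18 at chr15:102027966-102028179, + strand. Capitals mark matches to the 5 motifs named for Spp1.

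Krt8: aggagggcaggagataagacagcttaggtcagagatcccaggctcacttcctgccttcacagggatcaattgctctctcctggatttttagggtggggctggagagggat
Krt18: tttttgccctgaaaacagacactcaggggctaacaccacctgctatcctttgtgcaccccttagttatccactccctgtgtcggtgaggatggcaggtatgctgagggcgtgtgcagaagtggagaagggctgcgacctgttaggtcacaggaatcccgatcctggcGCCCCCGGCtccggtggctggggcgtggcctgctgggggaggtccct

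Krt18 held an AP-2 site at −83 to −75 from its RefSeq start, and 13.7% of all windows held that motif. No match to the 5 motifs was found in the 250 bases upstream of the RefSeq start of Krt8. Of those, 140 lie inside the gene in the annotation used for counts and are not shown. A RefSeq window was found for 7 of the 10 genes.

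Other keratins and the desmosome genes that anchor keratin filaments were listed as keratin partners. Of 13 such genes, 10 were tested between segments in knockouts, with 1 called higher and 5 lower in proximal tubule, where 20.2% of all genes tested were called lower. In wild type 9 were tested, with 1 called higher and 6 lower, where 25.1% of all genes were called lower. Krt7, Krt80, Dsp, Dsg2 and Dsc2 passed the filter through the distal libraries alone and so had to be lower, so these counts are no support for a pattern. Over all the partners tested, those genes included, the median log2 change was −4.36 in knockouts and −6.02 in wild type. It was −0.04 and −0.02 over all genes tested. The filter lowers the median of the partners too, so it is no support for a pattern either. Krt7, another distal keratin, had 0 CPM in PCT KO against 7.88 ± 2.13 CPM in DCT KO (SD, n = 4), and 0.0294 ± 0.0449 CPM in PCT WT against 10.8 ± 2.08 CPM in DCT WT (SD, n = 4 each). Dsp, the desmosome protein that anchors keratin, had 0.0367 ± 0.0636 CPM in PCT KO against 4.87 ± 1.14 CPM in DCT KO, and 0.00947 ± 0.0189 CPM in PCT WT against 4.29 ± 0.787 CPM in DCT WT. Jup, plakoglobin, was present in both segments, at 13.6 ± 1.94 CPM in PCT KO against 17.5 ± 1.72 CPM in DCT KO, and 12.3 ± 2.23 CPM in PCT WT against 17.1 ± 2.20 CPM in DCT WT. Its log2 change in wild type was −0.49 (limma adjusted p = 0.0119). Evpl, envoplakin, was the partner called higher in proximal tubule (2.08, limma adjusted p = 0.0234, in knockouts and 2.66, limma adjusted p = 0.00349, in wild type). It passed the filter through the proximal libraries alone and so had to be higher there, so this call is no support for a pattern.

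Wider lists split both ways between the segments. Of the 60 other injury genes 39 were tested in each genotype, with 12 called higher and 14 lower in PCT KO, and 12 higher and 17 lower in PCT WT. Over all genes tested, limma called 40.6% in knockouts (2827 higher and 2795 lower) and 48.7% in wild type (3210 higher and 3420 lower). Lgals3, Traf1, Sox4 and Tmsb10 passed the filter through the distal libraries alone, and C3, Icam1 and Myc through the proximal ones alone. Such genes had to differ, so these counts are no support for a pattern. Cd24a, whose human counterpart marks scattered tubule cells, had 2.10 ± 0.407 CPM in PCT KO against 63.8 ± 10.4 CPM in DCT KO, and 2.49 ± 1.26 CPM in PCT WT against 55.6 ± 8.40 CPM in DCT WT. Prom1, or CD133, which marks the same cells in human kidney, ran the other way, at 30.9 ± 6.24 CPM in PCT KO against 16.8 ± 3.73 CPM in DCT KO, and 41.6 ± 12.9 CPM in PCT WT against 15.8 ± 1.53 CPM in DCT WT. Its log2 change was 0.89 (limma adjusted p = 0.00299) in knockouts and 1.34 (limma adjusted p = 1.8e-05) in wild type. Lgals3, galectin-3, had 0 CPM in PCT KO against 5.77 ± 0.679 CPM in DCT KO, and 0.0114 ± 0.0227 CPM in PCT WT against 7.13 ± 1.22 CPM in DCT WT. Cxcl16 was higher in proximal tubule, at 7.16 ± 1.53 CPM in PCT KO against 0.279 ± 0.0511 CPM in DCT KO, and 10.9 ± 0.292 CPM in PCT WT against 0.429 ± 0.321 CPM in DCT WT.

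Of the 26 ligands and receptors 17 were tested, with 7 called higher and 3 lower in PCT KO, and 7 higher and 4 lower in PCT WT. Over all genes tested, 40.6% were called in knockouts, 20.2% as lower, and 48.7% in wild type, 25.1% as lower. Has3, among those called higher, passed the filter through the proximal libraries alone and so had to differ. The counts are thus no support for a pattern. The subunits of osteopontin-binding integrins went both ways. Itgav had log2 changes of −0.96 (limma adjusted p = 0.000325) in knockouts and −0.61 (limma adjusted p = 6.2e-05) in wild type, and Itgb5 had −1.84 (limma adjusted p = 2.1e-05) in knockouts and −2.14 (limma adjusted p = 3.4e-08) in wild type. Itgb6 was called higher in proximal tubule, at 1.16 (limma adjusted p = 0.0135) in knockouts and 1.16 (limma adjusted p = 0.00506) in wild type. Itgb1 did not pass the test, at 0.24 (limma adjusted p = 0.319) in knockouts and 0.0026 (limma adjusted p = 0.988) in wild type. Msn, moesin, which links CD44 to actin, was higher in proximal tubule (1.60, limma adjusted p = 8.7e-06, in knockouts and 2.002, limma adjusted p = 5e-09, in wild type). Cd44 itself had 2 counts in PCT KO against 17 in DCT KO, and 8 in PCT WT against 13 in DCT WT, too few to test. Lrp2, megalin, the receptor that takes up NGAL, had 1734 ± 178 CPM in PCT KO against 9.74 ± 2.54 CPM in DCT KO, and 1685 ± 182 CPM in PCT WT against 10.03 ± 1.11 CPM in DCT WT.

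Within groups, library-to-library changes of the members were compared with those of 7204 genes of at least 2 CPM, as deviations from the group mean over the 15 libraries. The most alike gene was Trove2 for Spp1 (Pearson r = 0.901), Ppp1r1a for Krt18 (0.930), Arrb1 for Clu (0.888), Akap10 for Krt8 (0.849), Csad for Havcr1 (0.883), Smim20 for Vim (0.859), Pdcd10 for Vcam1 (0.850) and Tfap2a for Sox9 (0.823). These are the highest values of many, over libraries that share preparation and depth, and are given as a description. Krt18, Clu, Sox9 and Vim had few counts in proximal tubule, and Havcr1 in distal tubule. A few reads therefore weigh heavily in the deviations of those genes. Krt8 and Krt18 had an r of 0.469 with each other.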

How the data were processed

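Per the submitters' processing notes, the authors used CASAVA 1.8, STAR 2.5 and DESeq2 1.24.0 with GRCm38; per the labels, libraries were made with a Nextera XT kit, which does not mark strand. The counting program, its annotation and its strand setting: not given in the sources used here. The deposited table holds the authors' whole-number raw counts per gene; its layout led to the unit being recorded as other, so count models were not run. The authors' deposited log2 fold changes and p values have the unit other too, and were used only for comparison. All columns were mapped (0 left over). Symbols, coordinates and exon lengths are from GENCODE M21, which matched 54723 of the 54752 genes.

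limma 3.58.1 in R 4.3.3 was run with voom weights (prior count 0.5) on the whole table, after TMM scaling (30% and 5% trims) and a filter (about 10 counts in a number of libraries equal to the smaller group, 15 in total). Only the compared groups entered a fit, except for the interaction. A gene was called at a two-sided Benjamini-Hochberg adjusted p under 0.05. The steps were tested on simulated data. The members, lists and tests were chosen with earlier results of these data known, and all members are named; of a list, genes with the smallest p or the highest CPM are named. Alternatives were other scalings, filters, weights, limma-trend, 1 fit of 15 libraries, a replicate block and leaving out libraries. Pooled-count ratios without 1 library were added after seeing the data. Depth was 28729339 to 51764746 counts, and 3 counts were worth 0.0568 to 0.103 CPM. No 2 replicates were copies (Pearson r of log2 CPM 0.913 to 0.943).

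Spp1 overlaps Gm42793 on the same strand (924 counts in all 15 libraries), so reads shared by both are uncertain.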

Additional observations from a re-analysis of the deposited data

Results flagged for a closer look

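In 30 groups of members and libraries, 4 held a library far from the other 3, and all 4 rest on few counts. Chance gives about 1 in 20 for measured values without ties. That rate does not hold for Havcr1, Lcn2 and Sox9, where the other 3 libraries were all at 0 and any count sets its library apart. Havcr1 had 0.114 CPM (5 counts) in DCT WT replicate 2 and 0 in the other 3 DCT WT libraries. Lcn2 had 0.137 CPM (6 counts) in the same library and 0 in the others. Sox9 had 0.0622 CPM (3 counts) in PCT WT replicate 2 and 0 in the other 3 PCT WT libraries. Vim had 0.0413 CPM (2 counts) in PCT WT replicate 1, against 0.133 CPM or more in the other 3.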

How the results depend on the processing

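Genes called in proximal tubule, 22 as reported, numbered 46 at an adjusted p under 0.1, 80 with no filter, 36 with 10 counts in every library of a group, 40 with sample quality weights, 123 in 1 fit of 15 libraries, and 2 to 18 when 1 library was left out. Members called there were 1 (Spp1) with no filter, quality weights or 1 fit, and 0 to 1 when 1 library was left out. Genes called in distal tubule were 4 with no filter. Genes called in the interaction were 1 with no filter, 5 with limma-trend, 2 without libraries 97795 and 97797, and 0 to 1 when 1 library was left out.

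Changes near 0 turned sign. In proximal tubule, Havcr1 was −0.32 with the library number series as a covariate, and −0.15 to 0.89 when 1 library was left out. Vcam1 there was −0.00064 with median-of-ratios scaling, −0.042 with protein-coding scaling, −0.0057 with no filter, −0.17 with that covariate, and −0.31 to 0.30 when 1 library was left out. In distal tubule, leaving out 1 library gave −0.16 to 0.034 for Krt8, −0.17 to 0.066 for Krt18 and −0.23 to 0.019 for Clu. Krt8 between segments in wild type was −0.015 with protein-coding scaling. In the interaction, Krt18 was 0.38 without libraries 97795 and 97797, and Vim was 0.14 with quality weights and −1.68 to 0.41 when 1 library was left out. The cause was not tested.

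The direction of each member called between segments held in all alternatives run. Without a filter Havcr1 was also called, higher in proximal tubule (5.25 in knockouts, 4.13 in wild type; fitted values, not bounds), and Vim in wild type (−2.71). When 1 library was left out, members called in wild type were 5 to 6, against 4 as reported, and stayed at 5 in knockouts. Leaving out a library can also lower the number of libraries that the filter asks for. Krt8 in knockouts was called with quality weights (adjusted p = 0.0406) or 1 fit (0.0341) and without PCT KO replicate 7 (0.0452).

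Knockout and wild type share no replicate number within a segment. Across segments, deviations of same-numbered libraries had r from -0.23 to -0.106 over 2 knockout pairs and under 0.1 in all 3 wild-type pairs. Pairs of unlike number had r from -0.138 to 0.306. So few correlations between different segments cannot show whether equal numbers mark the same mouse, which the labels do not state. A replicate block gave 3545 genes called between segments in knockouts in place of 5622, with 5 members called, and called Vcam1 in wild type (-1.91, adjusted p = 0.0296).

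At this depth, members with under about 10 counts a library could not be compared between genotypes.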
